A study of Rattus norvegicus with 22 samples.

Results

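The genes described here are 10 genes of the slow-twitch muscle fibre, namely Myh7, Myl2, Myl3, Tnni1, Tnnt1, Tnnc1, Atp2a2, Ankrd2, Csrp3 and Mb. They were chosen by their gene name, and each matched 1 row of the 32623 genes in the deposited table. The RNA-seq libraries came from male Sprague Dawley rats, 3 weeks old at the start, made obese on a high-fat feed, so that rats of every group, the quiet groups included, were obese. In gastrocnemius muscle there were 3 libraries each of the hypoxia exercise (MHE), normoxia exercise (MCE), hypoxic quiet (MH) and normoxia quiet (MC) groups. In epididymal adipose tissue there were 2 of hypoxia exercise (FHE), 3 of normoxia exercise (FCE), 2 of hypoxic quiet (FH) and 3 of normoxia quiet (FC). Exercise was treadmill running for some weeks. The study gives a higher and a lower range of speed without assigning them, and the lower reads as that of the hypoxia runners. On this reading, the effect of oxygen and that of speed cannot be told apart in MHE against MCE. A library is named by its group and its number in the labels, and the count of rats in the study reads as 1 rat per library.

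Slow-twitch (type I) fibres contract slowly, resist fatigue and rely on oxidative metabolism. Their thick filaments carry the slow myosin heavy chain with its slow light chains, their thin filaments a slow troponin complex, and their calcium is taken back up by the pump SERCA2. Fast fibres use a paralogue for each of these proteins, and the rat gastrocnemius is a mostly fast muscle with its slow fibres gathered in its deep portion. Most of the 10 genes are also active in heart muscle.

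A muscle library had 27149905 to 43834953 counts in total, of which 89.4% to 97.4% fell on mitochondrial DNA, leaving 841153 to 4334813 for nuclear genes. A fat library had 31449793 to 44334313 counts, of which 10.1% to 44.7% were mitochondrial and 20060028 to 36162561 nuclear. A level is therefore given as CPM of nuclear counts, which is a gene's count per 1000000 counts of genes outside the mitochondrial DNA, and 3 counts in a muscle library correspond to between 0.692 and 3.57 CPM. Levels of different genes were compared only as nuclear TPM, which also divides by gene length. Intervals given below are exact Poisson intervals at 95%, a count of 0 is given with a limit of 3 counts in place of an interval, and both cover counting error only. The skeletal muscle genes Acta1 (skeletal actin, 17981 to 44367 CPM) and Ckm (muscle creatine kinase, 7307 to 16099 CPM) were abundant in every muscle library.

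In the coordinates of the deposited table (rat genome of Ensembl release 99), Myh7 lay on chromosome 15 from 33634422 to 33656089 on the minus strand, Tnni1 on chromosome 13 from 52624878 to 52637297 on the plus strand, and Tnnt1 on chromosome 1 from 72889270 to 72899659 on the plus strand. Mb lay on chromosome 7 from 118101634 to 118108864 on the minus strand. The 250 bases before the start of 4 members are shown. They are those of the heavy chain, of the slow troponins I and T, and of myoglobin, the member whose levels were least like those of Myh7. The sequences are from RefSeq on assembly GRCr8, which is another build than that of the table, and are written 5′ to 3′ on the strand of the gene. The stretches are chr15:32438195-32438444 (minus strand), chr13:49781279-49781528 (plus), chr1:78348785-78349034 (plus) and chr7:110647743-110647992 (minus). Capitals mark the E-box CANNTG, the motif of the MyoD family of muscle factors, and the TATA box TATAAA.
Myh7 promoter: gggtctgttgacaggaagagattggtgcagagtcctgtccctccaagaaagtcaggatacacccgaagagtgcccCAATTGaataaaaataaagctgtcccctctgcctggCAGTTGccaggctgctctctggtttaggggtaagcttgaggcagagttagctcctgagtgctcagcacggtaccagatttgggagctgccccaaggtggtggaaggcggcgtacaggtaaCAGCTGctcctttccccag
Tnni1 promoter: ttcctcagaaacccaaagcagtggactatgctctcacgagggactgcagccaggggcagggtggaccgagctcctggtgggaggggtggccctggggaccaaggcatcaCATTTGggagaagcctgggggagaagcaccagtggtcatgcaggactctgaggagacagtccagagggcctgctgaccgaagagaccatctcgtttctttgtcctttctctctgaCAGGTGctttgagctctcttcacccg
Tnnt1 promoter: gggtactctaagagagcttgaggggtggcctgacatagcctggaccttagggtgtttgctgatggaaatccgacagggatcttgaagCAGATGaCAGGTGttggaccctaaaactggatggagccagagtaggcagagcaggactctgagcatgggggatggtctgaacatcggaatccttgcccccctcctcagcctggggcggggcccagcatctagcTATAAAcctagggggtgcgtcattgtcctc
Mb promoter: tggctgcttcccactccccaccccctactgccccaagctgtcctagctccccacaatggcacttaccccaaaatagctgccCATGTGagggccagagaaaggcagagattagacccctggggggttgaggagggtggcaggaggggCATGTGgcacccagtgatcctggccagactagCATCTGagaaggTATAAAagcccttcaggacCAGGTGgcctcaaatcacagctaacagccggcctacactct

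RefSeq promoters were matched for 7 of the 10 genes (Myh7, Myl3, Tnni1, Tnnt1, Atp2a2, Ankrd2 and Mb). An E-box, read on both strands, was found in 7 of the 7, and 65.5% of 33469 promoters of the same length hold one. The letters TATAAA, searched on both strands, occurred in 3 of the 7 (Tnnt1, Ankrd2 and Mb), against 12.9% of all promoters. In Tnnt1 the TATA box began at position -30 and in Mb at -60, where -1 is the base before the start, and the E-box nearest the start of Myh7 began at -19. The MCAT element CATTCC, searched on both strands and bound by TEAD factors, was found in 1 of the 7 (Myl3), against 12.1% of promoters. The MEF2 motif was found in 0 of the 7, against 2.96% of promoters. A match is a description of these letters only.

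The levels of the slow genes differed between rats of the same group more than the groups did from each other. Myh7 encodes the slow (beta) myosin heavy chain. It was measured at 127, 3.44 and 685 CPM in MHE1 to MHE3, at 6.05, 813 and 169 CPM in MCE1 to MCE3, at 298, 20.1 and 514 CPM in MH1 to MH3, and at 352, 354 and 119 CPM in MC1 to MC3. Each of the groups MHE, MCE and MH held 1 library with little Myh7 beside 2 with more, and the 4 groups overlapped. The low values rested on 10 counts in MHE2 (interval 1.65 to 6.32 CPM), 20 counts in MCE1 (3.69 to 9.34 CPM) and 87 counts in MH2 (16.1 to 24.8 CPM), so counting error did not span the gap to the other libraries. The group means were 272 ± 363 CPM in MHE, 329 ± 427 CPM in MCE, 277 ± 247 CPM in MH and 275 ± 135 CPM for MC (SD, n = 3 per group). In this order of means, from MCE down to MHE, no neighbours differed beyond their spread.

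**Figure D1:**
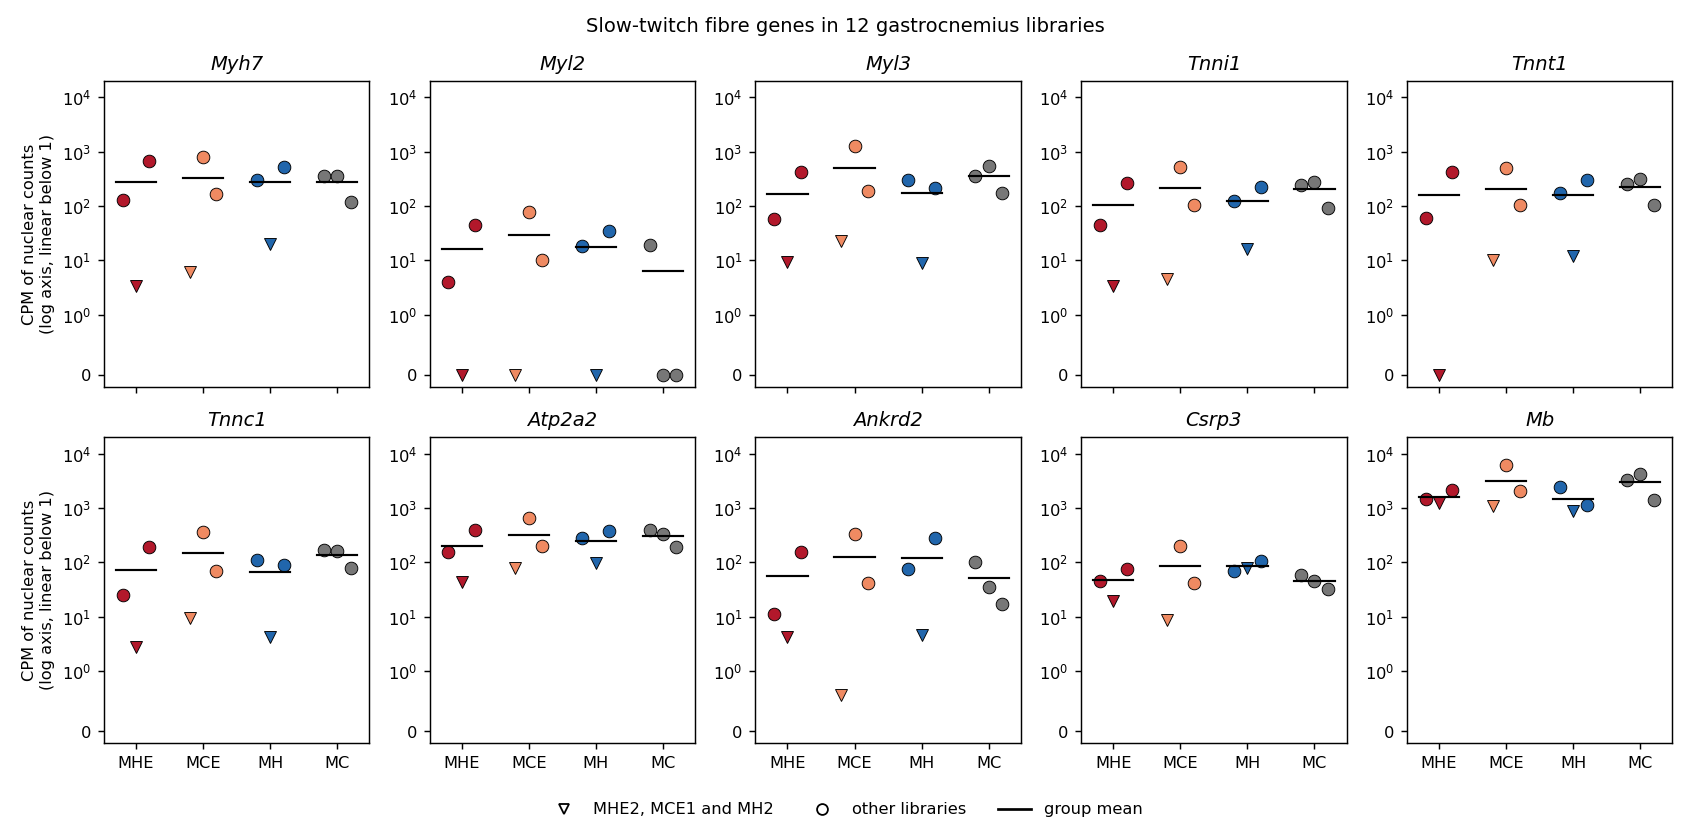
CPM of nuclear counts of each of the 10 slow-twitch genes (log axis, linear below 1) in the muscle groups MHE, MCE, MH and MC, with 1 point per library, triangles for MHE2, MCE1 and MH2, circles for the others and a bar at the group mean. The triangles are the lowest points of their groups for most genes, and MCE2 is the highest library for all 10, with Myh7 at 813 CPM.

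Of the slow light chains, Myl3 was the more abundant. Myl3, the slow essential light chain, had 58.6, 9.28 and 425 CPM in MHE1 to MHE3, 22.4, 1261 and 192 CPM in MCE1 to MCE3, 303, 8.77 and 212 CPM in MH1 to MH3, and 362, 537 and 173 CPM in MC1 to MC3. The lowest library of MHE, MCE and MH was again MHE2, MCE1 and MH2. Myl2, the slow regulatory light chain, was sparse, at 3.91, 0 and 45.1 CPM in MHE, 0, 78.5 and 10.2 CPM in MCE, 18.6, 0 and 34.5 CPM in MH, and 18.9, 0 and 0 CPM in MC. Its 0 counts allowed up to 1.03 CPM in MHE2, 0.907 in MCE1, 0.692 in MH2, 2.90 in MC2 and 0.709 in MC3 (3 counts per library). MC2 thus had no count of Myl2 beside 354 CPM of Myh7. The table's row for Myl2 spans 6253 bases, whereas the RefSeq gene spans 11273 bases, so part of its reads may not have been counted there.

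The slow troponin subunits switch contraction on when calcium rises. Tnni1, the slow inhibitory subunit, had 45.3, 3.44 and 265 CPM in MHE, 4.54, 533 and 106 CPM in MCE, 125, 15.9 and 224 CPM in MH, and 242, 277 and 91.0 CPM in MC, in the order of the library numbers. Tnnt1, the slow subunit that binds tropomyosin, had 59.4, 0 and 428 CPM in MHE, 10.3, 502 and 104 CPM in MCE, 173, 12.2 and 297 CPM in MH, and 250, 315 and 106 CPM in MC. Both genes were lowest in MHE2, MCE1 and MH2. Tnnc1, the calcium-binding subunit shared by slow fibres and heart, had 25.4, 2.75 and 188 CPM in MHE, 9.38, 368 and 67.9 CPM in MCE, 109, 4.15 and 89.2 CPM in MH, and 171, 164 and 78.2 CPM in MC. The 3 subunits thus shared their low libraries and their highest library, MCE2.

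Atp2a2, which encodes the calcium pump SERCA2 and is also used by cells other than muscle, varied less. It had 158, 43.6 and 392 CPM in MHE, 78.3, 660 and 196 CPM in MCE, 277, 95 and 383 CPM in MH, and 400, 330 and 187 CPM in MC. Its highest value was 15.1 times its lowest, against 237 times for Myh7.

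The stretch-responsive proteins of the group are Ankrd2, an ankyrin repeat protein of the I-band, and Csrp3, the muscle LIM protein of the Z-disc. Ankrd2 had 11.3, 4.12 and 153 CPM in MHE, 0.605, 328 and 41.3 CPM in MCE, 75.6, 4.61 and 282 CPM in MH, and 101, 34.9 and 16.8 CPM in MC. Its lowest value, in MCE1, rested on 2 counts (interval 0.0733 to 2.18 CPM). Csrp3 had 45.3, 19.6 and 75.4 CPM in MHE, 8.77, 202 and 41.3 CPM in MCE, 68.6, 78.0 and 105 CPM in MH, and 59.0, 45.5 and 32.1 CPM in MC. For Csrp3 every MH library lay above every MC library, and MH2 was not among its low libraries.

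Mb encodes myoglobin, the oxygen store of oxidative fibres, and fast oxidative fibres carry it as well. It had 1458, 1216 and 2171 CPM in MHE, 1087, 6246 and 2014 CPM in MCE, 2443, 892 and 1116 CPM in MH, and 3321, 4309 and 1426 CPM in MC. Its highest value was 7.0 times its lowest. Per gene length, the median nuclear TPM over the 12 muscle libraries was 2266 for Mb, 273 for Myl3, 179 for Tnnt1, 144 for Tnni1 and 122 for Tnnc1. It was 76.8 for Csrp3, 63.4 for Atp2a2, 48.9 for Myh7, 29.7 for Ankrd2 and 17.2 for Myl2.

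Across the members, 10 of 10 were highest in MCE2, and 7 of 10 had MHE2, MCE1 and MH2 as their 3 lowest muscle libraries. Of the 9176 genes with a mean of at least 10 CPM, 42 (0.458%) had these same 3 lowest libraries, and the 42 include these 7 members. The 3 libraries were singled out by the members' own low values, so this share is a description and not a test. The exceptions among the members were Myl2, at 0 in these 3 and in MC2 and MC3, Csrp3, lowest in MHE2, MCE1 and MC3, and Mb, lowest in MCE1, MH2 and MH3. The within-group SD of log2(CPM + 1), pooled over the 4 groups, had a median of 2.45 over the 10 members, against 0.41 over the 9176 genes and 0.46 over 11 measured genes of fast fibres. It was above the 95th percentile of those genes in 9 of the 10 members, and Mb stood at the percentile 94.0. In bulk tissue a lower share of slow fibres and less slow RNA per fibre cannot be told apart.

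The study's comparisons ask what exercise, hypoxia at rest, exercise added to hypoxia, and hypoxic against normoxic exercise changed in the muscle. With edgeR's quasi-likelihood F test on all 12421 tested genes, 0 of the 10 members were called at an adjusted p under 0.05 in any of the 4 comparisons or in the interaction of exercise and hypoxia, and 0 at an unadjusted p under 0.05. Among all tested genes the share called was 0.00805% for MCE against MC, 0.0403% for MH against MC, 0.00805% for MHE against MH, 0.0% for MHE against MCE and 0.0% for the interaction. At an unadjusted p under 0.05 the shares were 3.09%, 8.42%, 3.74%, 3.58% and 3.82% in the same order. DESeq2 called 0 of the 9 or 10 members to which it gave an adjusted p, against 0.0325%, 1.2%, 0.19%, 0.0687% and 0.104% of the genes it gave an adjusted p.

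For Myh7 the log2 fold change of MCE against MC was 0.33 ± 1.41 (SE) and that of MH against MC -0.061 ± 1.41, while that of MHE against MH was 0.050 ± 1.41 and that of MHE against MCE -0.35 ± 1.41. With a standard error of this size, a doubling or a halving of Myh7 was not detectable. Of the 40 values of the 10 members in the 4 comparisons, 8 were larger than their standard error and 0 were larger than 2 standard errors. The smallest p among the members was that of Mb in MH against MC, with a log2 fold change of -1.08 ± 0.59 and group means of 1484 ± 838 CPM across MH libraries and 3019 ± 1465 CPM across MC libraries (edgeR adjusted p = 0.673). Myl3 had -1.65 ± 1.34 in MHE against MCE (edgeR adjusted p = 0.997). The largest value of the interaction was that of Ankrd2, at -2.36 ± 2.17 (edgeR adjusted p = 0.9999).

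**Figure D2:**
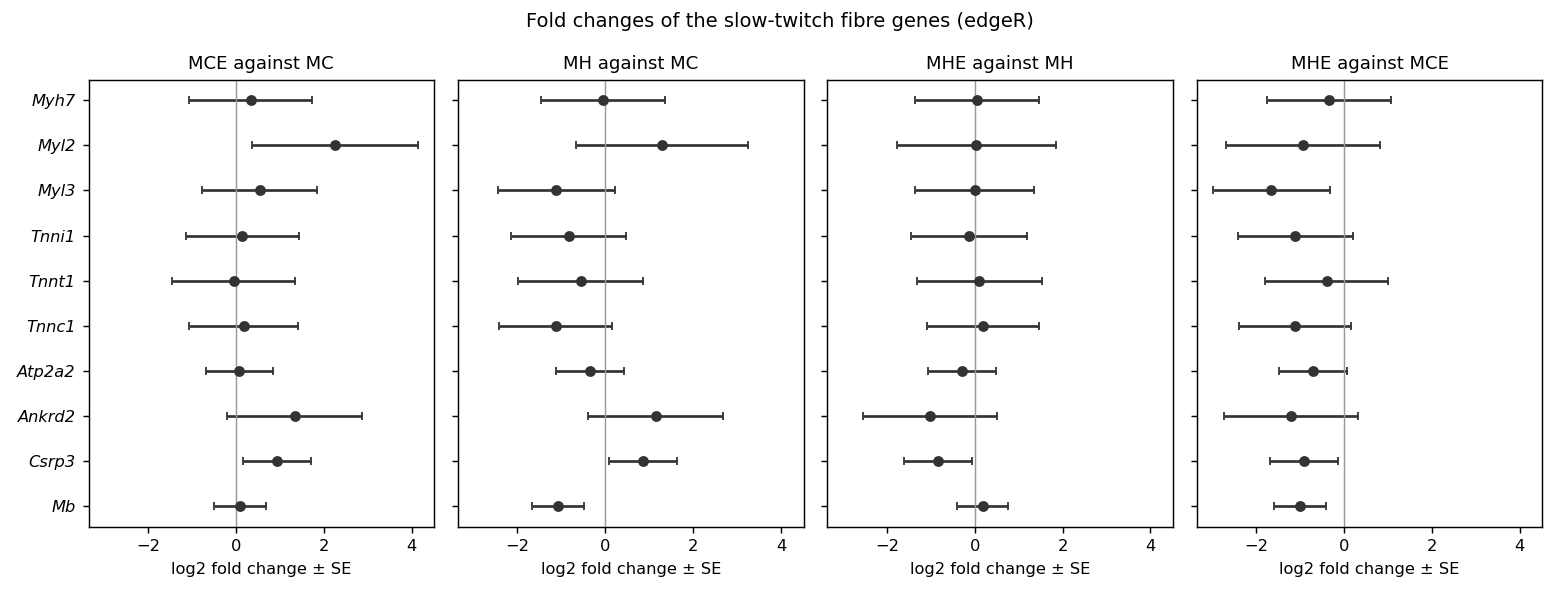
Log2 fold changes of the 10 genes in the 4 muscle comparisons (edgeR, points) with bars of 1 standard error either side and a line at 0. Every bar of Myh7 crosses 0, 8 of the 40 bars do not, and no value exceeds 2 standard errors.

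The members' values lay mostly on 1 side of 0 within a comparison, which is a description, since the genes move together between libraries. Their median was 0.26 in MCE against MC, with 9 of 10 positive, and -0.45 in MH against MC, with 3 of 10 positive. In MHE against MH it was 0.020, with 6 of 10 positive, and in MHE against MCE -0.97, with 0 of 10 positive. The median over all tested genes lay between -0.01 and 0.00 in each of the 4. These comparisons share libraries, MC in the first and the second, MH in the second and the third, MHE in the third and the fourth, and MCE in the first and, with opposite sign, the fourth. The sign rested on the single library MCE2 in the comparisons with MCE. Without it 0 of 10 members were positive in MCE against MC (median -1.47) and 10 of 10 were positive in MHE against MCE (median 0.90).

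The groups overlapped in 39 of the 40 pairs of a member and a comparison. The exception was Csrp3 in MH against MC, with 68.6, 78.0 and 105 CPM in MH and 59.0, 45.5 and 32.1 CPM in MC, a log2 fold change of 0.86 ± 0.78 (edgeR adjusted p = 0.840). Of 12384 genes, 13.8% did not overlap in MH against MC, 7.69% in MCE against MC, 8.77% in MHE against MH and 9.54% in MHE against MCE. A count of 1 in 40 was no more than these shares.

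A ratio of a slow gene to its fast paralogue within a library does not depend on how the library was scaled. The share of Myh7 in the TPM of Myh7 and Myh2 (a fast heavy chain) was 1.39%, 0.0485% and 9.88% in MHE1 to MHE3 and 0.117%, 12.2% and 2.11% in MCE1 to MCE3. It was 5.25%, 0.196% and 7.95% in MH1 to MH3 and 4.53%, 5.72% and 2.60% in MC1 to MC3. The libraries MHE2, MCE1 and MH2 were again the lowest, so their low Myh7 was seen against the fast chain as well. Means were 3.77 ± 5.33% in MHE, 4.82 ± 6.49% in MCE, 4.47 ± 3.93% in MH and 4.28 ± 1.57% for MC (SD, n = 3 per group). Exact two-sided permutation tests gave p = 1.0 for MCE against MC, 1.0 for MH against MC, 0.9 for MHE against MH and 0.6 for MHE against MCE, all 1.0 after adjustment over the 4, where 3 against 3 libraries cannot go below 0.1. Myh1 and Myh4, the other fast heavy chains, were not matched by name. The row named Myh2 spans 134410 bases, against 26497 bases for the RefSeq gene, so it may also hold reads of its neighbours.

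The shares of Myl3, Tnni1, Tnnt1 and Tnnc1 were also lowest in MHE2, MCE1 and MH2, whereas that of Myl2 was at 0 in MC2 and MC3 as well, and that of Atp2a2 was lowest in MHE2, MH3 and MH2. Over the 12 muscle libraries the share of Myl3 in Myl3 and Myl1 ranged from 0.0554% to 13.2%, that of Tnni1 in Tnni1 and Tnni2 from 0.0810% to 10.7%, and that of Tnnt1 in Tnnt1 and Tnnt3 from 0% to 8.51%. The share of Tnnc1 in Tnnc1 and Tnnc2 ranged from 0.0511% to 8.90%, and that of Myl2 in Myl2 and Mylpf from 0% to 1.93%. The highest of each lay in MCE2 or MHE3. For Tnni1 the group means were 2.99 ± 4.31% in MHE, 4.40 ± 5.57% in MCE, 4.03 ± 3.97% in MH and 5.71 ± 1.72% for MC (SD, n = 3 per group), and these overlapped. Atp2a2 made up 0.0920% to 0.212% of the TPM of Atp2a2 and Atp2a1 in MH, against 0.480% to 0.864% in MC. The row of Atp2a1, the fast calcium pump, spans 1114 bases, whereas the RefSeq gene spans 18213 bases, so the TPM of Atp2a1 and this share are uncertain. For Tnni2 the row spans 2623 bases and the RefSeq gene 144677 bases, and for Mylpf no RefSeq length was found. The shares of Tnni1 and Myl2 carry this limit.

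**Figure D3:**
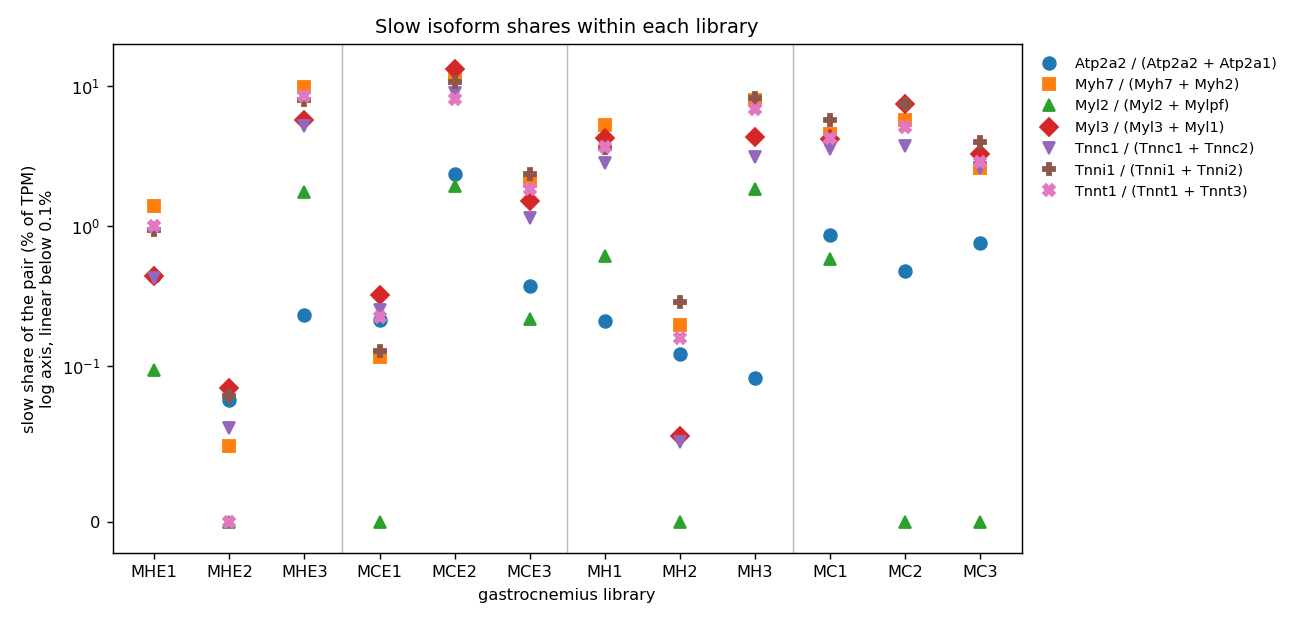
Share of the slow gene in the summed TPM of slow and fast gene (percent, log axis, linear below 0.1%) for 7 paralogue pairs, told apart by marker and colour, in each muscle library. The share of Myh7 was 12.2% in MCE2 and 0.0485% in MHE2, and that of Atp2a2 put the libraries in another order.

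Likeness to Myh7 was measured as the correlation of log2(CPM + 1) over the 12 muscle libraries, as a description with no test, since all points share library depth and the other cells of the tissue. Among all genes with a mean of at least 10 CPM, Tnni1 was the most like it (Pearson r = 0.99, Spearman rho = 0.96). Atp2a2 (r = 0.97), Tnnt1 (r = 0.97), Tnnc1 (r = 0.94), Myl3 (r = 0.93) and Ankrd2 (r = 0.92) were among the 9 genes of highest r. Csrp3 and Myl2 (r = 0.77 each) stood at ranks 43 and 44, and Mb (r = 0.67, rho = 0.70) at rank 119. Over the 45 pairs of members, r ranged from 0.49 to 0.99 with a median of 0.83.

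Of genes with a symbol outside the list, the 5 with the highest r were Myh6 (r = 0.98), Myoz2 (r = 0.96), Nnt (r = 0.90), Actc1 (r = 0.88) and Pla2g12a (r = 0.86). A row that carries only a clone-based name (r = 0.93, rank 7) was passed over. Myoz2 encodes calsarcin-1, a Z-disc protein of slow fibres, Actc1 cardiac actin, Nnt a transhydrogenase of the inner mitochondrial membrane, and Pla2g12a a secreted phospholipase. Myh6, the alpha heavy chain of the heart, is a close copy of Myh7 next to it in the genome, and reads could be shared between them. It had 20.7, 1.37 and 97.6 CPM in MHE, 0.907, 108 and 21.5 CPM in MCE, 34.1, 3.69 and 99.9 CPM in MH, and 28.4, 37.8 and 17.7 CPM in MC. For comparison, r was -0.16 for Myh2, -0.29 for Mylpf, -0.38 for Myl1 and -0.30 for Tnnc2, which are genes of fast fibres. Of other fast fibre genes, Tnni2 had -0.18, Tnnt3 -0.14 and the short Atp2a1 row 0.30. The general genes of skeletal muscle Acta1 and Ckm had 0.11 and 0.01.

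Since several members are also heart genes, markers of cardiac muscle were read in the same libraries. The summed level of the 8 markers ranged from 1.37 to 108 CPM in MHE, 4.23 to 108 CPM in MCE, 8.07 to 113 CPM in MH and 22.7 to 49.4 CPM in MC, nearly all of it from Myh6 and Tnnt2. Of these markers, Nppa, Nppb, Mybpc3 and Myl7 had 0 counts in every muscle library, where 3 counts correspond to 0.692 to 3.57 CPM. Tnni3 had 2 counts in MHE3 and 2 in MC2, and Ryr2 had 2 in MHE3. Each had 0 counts in the remaining muscle libraries.

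Within each of the 4 muscle groups, the order of the 3 libraries by Myh7 was the same as their order by mitochondrial share of counts, from MHE2, MHE1 to MHE3, from MCE1, MCE3 to MCE2, from MH2, MH1 to MH3 and from MC3, MC1 to MC2. The 3 libraries with little Myh7 lay at 91.9% (MHE2), 91.5% (MCE1) and 89.4% (MH2) mitochondrial counts. Over all 12 libraries Pearson r was 0.72 (permutation p = 0.00842, adjusted 0.0112) and Spearman rho 0.88 (permutation p = 0.00034, adjusted 0.00136). Without MC2 and MH3, the 2 farthest from the median share, r was 0.71 (permutation p = 0.0230, adjusted 0.0230) and rho 0.89 (permutation p = 0.00102, adjusted 0.00204, n = 10), with adjustment over these 4 p-values. MHE2, MCE1 and MH2 stood apart in Myh7 and are in both sets. MC3 had 119 CPM of Myh7 at 90.3% mitochondrial counts, below the share of MHE2 and MCE1. Nuclear counts enter both measures, as the part of the total that is not mitochondrial and as the divisor of CPM. The permutations do not allow for this link, and the cause of the relation was not tested. The correlation was computed for Myh7 alone, so how many of all genes follow this share as closely was not tested.

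**Figure D4:**
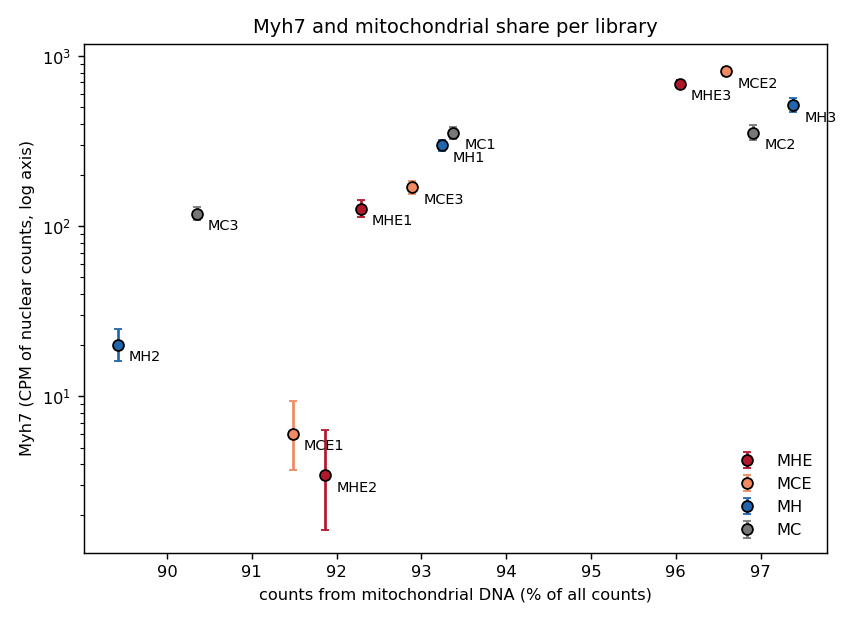
Myh7 (CPM of nuclear counts, log axis) against the percentage of all counts from mitochondrial DNA in the 12 muscle libraries, with 1 labelled point per library coloured by group and bars of the exact Poisson interval at 95%. Within each group both measures put the 3 libraries in the same order, and MHE2, MCE1 and MH2 lie well below the other 9.

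Other genes of the slow programme were read from lists by their role. Of 9 other slow fibre genes, 8 were tested and 0 called in any muscle comparison. The smallest unadjusted p-values were those of Ckmt2 (mitochondrial creatine kinase), with 47.7 ± 20.3 CPM in MHE and 137 ± 120 CPM in MCE, a log2 fold change of -1.57 ± 0.65 (edgeR adjusted p = 0.997), and of Myh7b (a slow-type heavy chain), with 71.3 ± 82.0 CPM in MH and 17.3 ± 8.52 CPM in MC, a log2 fold change of 2.0 ± 0.92 (edgeR adjusted p = 0.587). Fabp3, the fatty acid carrier of oxidative muscle, had -1.51 ± 0.88 in MH against MC (edgeR adjusted p = 0.698). Pln, the phospholamban that restrains SERCA2, had 0.62 ± 0.37 in MCE against MC (edgeR adjusted p = 0.9998).

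Of 20 regulators of the slow programme, 18 were tested and 0 called. Calcineurin, a phosphatase switched on by calcium, activates slow genes through NFAT factors, and Ppp3cb, its beta catalytic subunit, had 93.8 ± 8.68 CPM in MH and 135 ± 7.86 CPM in MC, a log2 fold change of -0.53 ± 0.18 (edgeR adjusted p = 0.421). Ppp3ca, the alpha subunit, had 117 ± 22 CPM in MHE and 66.7 ± 22.2 CPM in MCE, a log2 fold change of 0.82 ± 0.41 (edgeR adjusted p = 0.997). Tead1, a factor that binds MCAT elements, had 8.52 ± 2.12 CPM in MH and 20.2 ± 6.67 CPM in MC, a log2 fold change of -1.32 ± 0.41 (edgeR adjusted p = 0.358). Esrrg, an oestrogen-related receptor of oxidative fibres, had 7.14 ± 5.15 CPM in MCE and 18.0 ± 6.71 CPM in MC, a log2 fold change of -1.36 ± 0.63 (edgeR adjusted p = 0.9998). None of these passed the adjusted threshold, and the shares of all genes at an unadjusted p under 0.05 are those given above.

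Of 9 stretch and Z-disc genes, 7 were tested and 0 called, with the smallest p for Ankrd1, a relative of Ankrd2, at 23.2 ± 22.8 CPM in MH and 6.65 ± 8.39 CPM in MC (edgeR adjusted p = 0.618). Flnc (filamin C), Ankrd23 and Xirp1 followed. Of 13 fast fibre genes, 11 were matched and tested and 0 called. The smallest p was that of the short Atp2a1 row, with 23184 ± 19672 CPM in MH and 5437 ± 2494 CPM in MC (edgeR adjusted p = 0.379). In the same libraries the summed level of 7 adipocyte markers was 1360 to 1627 CPM in MHE against 635 to 858 CPM in MCE, without overlap, and 998 to 1035 CPM in MH against 730 to 1529 CPM in MC. Of single genes, 9.54% did not overlap in MHE against MCE. Most of the sum was Fabp4, with 909 ± 71.4 CPM in MHE and 535 ± 99.7 CPM in MCE, whereas Plin1 had 37.5 ± 34.7 CPM in MHE and 2.44 ± 2.81 CPM in MCE. The part of these markers in the slow genes' values was not tested.

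In fat, the 9 genes other than Atp2a2 lay between 0 and 9.29 CPM outside FHE3 and FCE2. All 9 were higher in FHE3 than in FCE2, where Myl2 was at 0. Myh7 was at 469 CPM in FHE3 and 33.1 CPM in FCE2, and at 0 to 0.0895 CPM in the other 8 fat libraries, with 0 counts in 6 of them. Mb had 340 CPM in FHE3 and 29.0 CPM in FCE2, against 0.186 to 1.92 CPM in the other 8. Myl3 had 118 and 9.29 CPM in FHE3 and FCE2, against 0 to 0.318 CPM, and Tnni1 had 112 and 8.78 CPM, against 0 to 0.449 CPM. FHE3 was the highest fat library for 10 of 10 members, and FCE2 was the second for 7.

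The remaining members showed where the pattern ended. Tnnt1 had 171 CPM in FHE3 and 7.12 CPM in FCE2, but 9.29 CPM in FCE1, where Myh7 had 0 counts and Tnni1 0.182 CPM. Tnnc1 had 63.1 and 5.73 CPM in FHE3 and FCE2, against 0.465 to 2.03 CPM in the others. Csrp3 had 37.3 and 0.573 CPM, Ankrd2 12.1 and 0.664 CPM, and Myl2 6.51 and 0 CPM in FHE3 and FCE2. Atp2a2, the pump that adipose cells also use, had 378 CPM in FHE3 and 253 CPM in FCE2, against 209 to 338 CPM in the other 8 libraries.

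**Figure D5:**
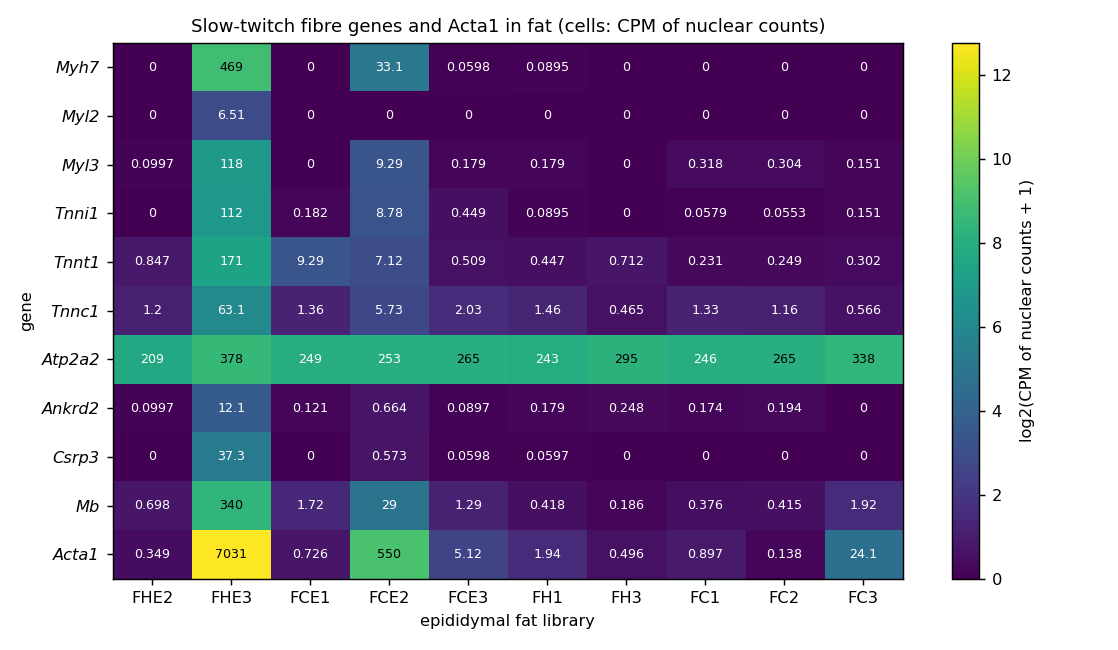
CPM of nuclear counts of the 10 slow genes and of Acta1 (rows) in each of the 10 fat libraries (columns), printed in each cell, with colour on a log2(CPM + 1) scale. FHE3 and FCE2 stand out, with Myh7 at 469 and 33.1 CPM, whereas Atp2a2 lies between 209 and 378 CPM in every library.

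Other muscle fibre genes moved with them. Acta1 was at 7031 CPM in FHE3 and 550 CPM in FCE2, against 0.138 to 24.1 CPM in the other 8 fat libraries, and Myh2 at 7072 and 293 CPM in FHE3 and FCE2. The share of Myh7 in Myh7 and Myh2 was 6.16% in FHE3 and 10.1% in FCE2, within the 0.0485% to 12.2% of the muscle libraries. The shares of Myl3 (6.39% and 9.47%), Tnnt1 (8.39% and 6.93%) and Tnni1 (6.67% and 12%) in FHE3 and FCE2 were likewise in or near the muscle ranges, and of these the share of Tnni1 in FCE2 exceeded its muscle range, as did that of Tnnc1 (12.1%). Set against actin, Myh7 had 16.2 TPM per 1000 TPM of Acta1 in FHE3 and 14.6 in FCE2, above the 0.0224 to 5.41 of the muscle libraries. Other genes exceeded their muscle range by this measure too, as Myh2 did at 247 in FHE3 and 131 in FCE2 (highest in muscle 78.5), Ckm at 651 and 519 (435) and Tnni1 at 22.8 and 23.5 (17.4). Mb, at 73.3 and 80.0 TPM per 1000 TPM of Acta1, lay within the muscle range of 37.2 to 213. The source of these counts was not tested.

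The part of FHE3 and FCE2 in the members' fitted differences in fat was not tested. Of the 9 members tested there (all but Myl2), edgeR called 0 in each comparison, as it called 0.0% of all 16364 tested genes in each. At an unadjusted p under 0.05 there were 8 of 9 members in FHE against FH, against 16.8% of all genes, 4 of 9 in FHE against FCE, against 11.4%, 2 of 9 in FCE against FC, against 5.04%, and 0 of 9 in FH against FC, against 4.75%. For Myh7 the level in FHE was 0 CPM in FHE2 and 469 CPM in FHE3, so the group of 2 disagreed within itself. Among the 6 members given an adjusted p, DESeq2 called 3 in FHE against FH (Tnnt1, Tnnc1 and Ankrd2), against 6.5% of all genes, and 0 in FHE against FCE, against 3.0%. The 3 genes called in FHE against FH were high in FHE3 only. Tnnt1 had 0.847 CPM in FHE2 and 171 CPM in FHE3, against 0.447 CPM in FH1 and 0.712 CPM in FH3. Tnnc1 had 1.196 CPM in FHE2 and 63.1 CPM in FHE3, against 1.46 CPM in FH1 and 0.465 CPM in FH3. Ankrd2 had 0.0997 CPM in FHE2 and 12.1 CPM in FHE3, against 0.179 CPM in FH1 and 0.248 CPM in FH3. DESeq2 also called 1 in FCE against FC, against 0.409%, and 1 in FH against FC, against 0.9%. Both times it was Csrp3, which had 0 counts in every FC library and at most 2 counts in an FH library.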

How the data were processed

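RNA of gastrocnemius muscle (12 libraries) and epididymal adipose tissue (10 libraries) was sequenced after stranded mRNA library preparation. Reads were filtered with FastQC and Trimmomatic and aligned by the authors with HISAT2 against the Ensembl release 99 rat genome. The program that counted reads and its strand setting are not given in the sources used here. The deposited table gives raw counts of reads for each gene, with no normalization, and TPM, in which the authors corrected counts for gene length and depth. The 22 FPKM columns were not used.

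CPM of nuclear counts divides a count by the sum over genes outside the 37 of mitochondrial DNA, and nuclear TPM rescales TPM to 1000000 over the same genes. Each tissue was fitted apart with edgeR 4.0.16 in R 4.3.3 on the deposited counts (all genes in the library size, TMM, filterByExpr, quasi-likelihood F test, 1 mean per group), with Benjamini-Hochberg adjustment over all genes tested and a threshold of 0.05. The fit was also run on simulated data with the same spread for every gene. That run does not show how the fit treats the members, whose within-group SD (median 2.45) lay above that of most genes (median 0.41). SE is the log2 fold change over the square root of F. DESeq2 1.42.0 was an alternative. Other alternatives were no filter, 5 CPM in 2 libraries, nuclear counts only, the mitochondrial share as a covariate, the replicate number as a block, omission of each library, and, for the Myh7 share, counts or all measured heavy chains. Spread and likeness used log2(CPM + 1) of genes with a mean of at least 10 CPM. Correlations had 100000 permutations.

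All 10 members were named in every comparison. From each other list up to 4 genes of smallest p in any muscle comparison were named, and the 5 genes with a symbol of highest r with Myh7. The members and lists were chosen with earlier results of these data known. Markers of smooth muscle and muscle stem cells were read as well, and 0 of those tested were called in muscle. Replicates are read as separate rats.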

Additional observations from a re-analysis of the deposited data

How the results depend on the processing

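No member was called under any alternative in muscle, and the lowest adjusted p of the 10 genes over them was 0.486 (edgeR and DESeq2). Of the 236 values of the 40 member results under settings other than the omission of a library, 24 had another sign than the main value. With the mitochondrial share as a covariate these were, in MCE against MC, -0.97 for Myh7, -0.86 for Myl3, -1.03 for Tnni1, -1.15 for Tnnc1, -0.45 for Atp2a2, -0.56 for Ankrd2 and -0.090 for Mb, in MH against MC -0.29 for Ankrd2, and in MHE against MH -0.26 for Myh7, -0.41 for Myl2, -0.68 for Myl3, -0.34 for Tnnt1 and -0.41 for Tnnc1. With a filter of 5 CPM in 2 libraries Myh7 had 0.020 in MH against MC and Myl3 -0.023 in MHE against MH. In MHE against MH Myl2 had -0.032 with DESeq2, and Myl3, whose main value was 4.2e-05, had -0.00088 with no filter on low counts. The cause of these turns was not tested.

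The replicate numbers are shared by the groups. Over 18 pairs of same-numbered muscle libraries the correlation of their deviations ranged from -0.19 to 0.25 and was over 0.1 in 4. No clear pairing by number was seen, but with 3 libraries per group this check cannot exclude one. With the replicate block, Tnni1 had -0.17 and Atp2a2 -0.00028 in MCE against MC, and in MHE against MH Myh7 had -0.24, Myl2 -0.15, Myl3 -0.37, Tnnt1 -0.29 and Tnnc1 -0.16. The block left 2 genes called in MH against MC and 1 in FHE against FCE. For the Myh7 share a block by number cannot change the difference in group means, so it gave no check there.

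The counts of genes called depended on the tool. DESeq2 called 6 genes for MCE against MC, 106 for MH against MC, 7 for MHE against MH, 12 for MHE against MCE and 12 for the interaction, where edgeR called 1, 5, 1, 0 and 0. In fat, 70 genes of FCE against FC, 154 of FH against FC, 1003 of FHE against FH and 463 of FHE against FCE were called by it, where edgeR called 0 in each. With no filter edgeR called 2 for MCE against MC, 57 for MH against MC, 2 in MHE against MH, 4 in MHE against MCE and 4 in the interaction. The 5 CPM filter gave 1 in the interaction, and the mitochondrial covariate 3 in MH against MC. Without FHE3 and FCE2, a setting chosen after seeing the data, FHE against FH had 3 genes called and FHE against FCE had 4.

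Leaving out each library in turn moved the counts between 0 and 2 for MCE against MC, 2 and 11 for MH against MC (11 without MCE1), 0 and 2 in MHE against MH, 0 and 1 in MHE against MCE and 0 and 1 in the interaction. In fat they stayed at 0 for FCE against FC and lay between 0 and 3 for FH against FC (3 without FH1), 0 and 16 for FHE against FH (16 without FHE2, 10 without FHE3) and 0 and 11 for FHE against FCE (11 without FHE2, 9 without FHE3). Where 1 library of a fat group is left, its spread is taken to be that of the other groups. Over these omissions 33 of the 40 member results changed sign at least once. In MCE against MC the log2 fold changes ranged over -1.65 to 0.92 for Myh7, -0.31 to 9.26 for Myl2, -1.75 to 1.11 for Myl3, -1.88 to 0.73 for Tnni1, -1.97 to 0.52 for Tnnt1, -1.84 to 0.75 for Tnnc1, -1.18 to 0.56 for Atp2a2, -1.29 to 2.40 for Ankrd2, -0.87 to 1.49 for Csrp3 and -1.0 to 0.53 for Mb. In MH against MC the log2 fold changes ranged over -0.89 to 0.50 for Myh7, 0.39 to 8.27 for Myl2, -1.80 to -0.54 for Myl3, -1.63 to -0.29 for Tnni1, -1.38 to 0.0084 for Tnnt1, -1.76 to -0.53 for Tnnc1, -0.78 to 0.043 for Atp2a2, -0.46 to 2.19 for Ankrd2, 0.63 to 1.10 for Csrp3 and -1.59 to -0.72 for Mb. In MHE against MH the log2 fold changes ranged over -2.10 to 0.87 for Myh7, -3.04 to 0.93 for Myl2, -2.35 to 0.68 for Myl3, -2.30 to 0.66 for Tnni1, -2.44 to 0.92 for Tnnt1, -2.23 to 0.81 for Tnnc1, -1.32 to 0.18 for Atp2a2, -3.90 to 0.58 for Ankrd2, -1.37 to -0.46 for Csrp3 and -0.11 to 0.68 for Mb. In MHE against MCE the log2 fold changes ranged over -2.51 to 1.63 for Myh7, -4.02 to 1.64 for Myl2, -4.02 to 0.62 for Myl3, -3.30 to 0.91 for Tnni1, -2.96 to 1.51 for Tnnt1, -3.55 to 0.89 for Tnnc1, -1.76 to 0.54 for Atp2a2, -4.11 to 1.40 for Ankrd2, -1.47 to 0.90 for Csrp3 and -1.43 to 0.093 for Mb. The difference in the Myh7 share ranged, in percentage points, from -3.17 to 2.89 for MCE against MC, -1.56 to 2.32 for MH against MC, -3.75 to 1.17 in MHE against MH and -4.10 to 2.66 in MHE against MCE.

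Depth limits the low libraries, where Myh7 rested on 10 to 87 counts, and each muscle group holds 3 libraries. The libraries are read as 1 per rat, so the spread between rats and that between dissections of the muscle cannot be told apart.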

Other observations

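The muscle libraries with the most Myh7 were MCE2 (813 CPM) and MHE3 (685 CPM), and the fat libraries with the most Myh7 were FHE3 (469 CPM) and FCE2 (33.1 CPM), which carry the same group and number. This was noticed after the values were seen, and the study's count of rats reads as different rats for fat and muscle, so no test was made. FCE1 held 9.29 CPM of Tnnt1 with 0 counts of Myh7 and of Myl3, unlike FHE3, where Tnnt1 (171 CPM) stood beside Myh7 (469 CPM) and Myl3 (118 CPM). Among the fat libraries, Csrp3 had 0 counts in 6 and Myl2 in 9 of 10.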
